A study of Rattus norvegicus with 4 samples.

Results

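The MAP kinase phosphatases (MKPs) examined here are the 10 catalytically active, MAP kinase-directed members of the *Dusp* family, namely *Dusp1*, *Dusp2*, *Dusp4*, *Dusp5*, *Dusp6*, *Dusp7*, *Dusp8*, *Dusp9*, *Dusp10* and *Dusp16*. They were taken by gene symbol from a table of 34773 genes, each symbol matching 1 row. The control was 1 poly(A) RNA library of wild-type rat embryonic stem cells (ESCs), DA-5-3GFP, and it was set against 3 *Thop1*-KO subclones (#1, #2 and #3) with 1 library apiece. The subclones are separate Cas9-derived clones of the control line, and all 4 libraries carry the *Rex1*-GFP reporter. The methods of the study describe DA-5-3 as the wild-type, diploid line, whereas the deposited design text speaks of haploid ESCs. Those methods place rat ESCs on a feeder layer with 2i/LIF, a medium containing the MEK inhibitor PD0325901, the GSK3 inhibitor CHIR99021 and the cytokine LIF, so that control and subclones would share MEK inhibition. The labels do not give the medium of the sequenced cultures. The p-values below measure only the spread among these 3 subclones, which may be clonal or technical.

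MKPs switch MAP kinases off by removing the phosphates from both the threonine and the tyrosine of the activation loop. They are commonly sorted by location and substrate. *Dusp1*, *Dusp2*, *Dusp4* and *Dusp5* encode inducible nuclear enzymes, *Dusp6*, *Dusp7* and *Dusp9* cytoplasmic enzymes that prefer ERK, and *Dusp8*, *Dusp10* and *Dusp16* enzymes that prefer JNK and p38 MAP kinases. In ESCs, ERK activity downstream of FGF drives the exit from naive pluripotency, and MEK inhibition holds it down. Several of these phosphatases are themselves transcribed in response to MAP kinase activity, so their mRNA is used both as a readout of the pathway and as a measure of its negative feedback.

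The counts on genes summed to between 15405499 and 17936544 per library. *Thop1*, the targeted gene, was at 370 CPM (counts scaled to the size of the library, after TMM normalization) in the control and at 92.5 to 149 CPM in the subclones (log2 fold change -1.66, standard error 0.29, adjusted p = 0.0187 by edgeR). *Pou5f1*, which defines pluripotent cells, was at 4794 CPM in the control and at 3889 to 4842 CPM in the subclones. Of 11 fibroblast marker genes in the table, 3 (*Thy1*, *Dcn* and *Lum*) had 0 counts in every library. The summed FPKM of the fibroblast list was 40.5 in the control and 62.6, 131 and 79.3 in #1, #2 and #3. *Col1a1* supplied most of this sum, at 32.2 FPKM in the control and 51.8, 94.2 and 62.5 FPKM in the subclones. In 6 of the 8 fibroblast markers tested every subclone exceeded the control, and *Fbln2* was called higher (log2 fold change 3.93, standard error 0.69). The primitive endoderm list had 7 of 9 genes tested, 0 called by edgeR, 4 at an unadjusted p-value under 0.05 and 0 without counts. Its summed FPKM was 81.0 in the control and 118, 130 and 166 in the subclones. *Lama1* supplied most of this sum, at 79.2 FPKM in the control and 114, 127 and 164 FPKM in the subclones. Of the 7 genes tested, 5 were higher than the control in every subclone. The other 2, *Gata4* (log2 fold change -3.24, standard error 1.27) and *Col4a1* (-0.89, standard error 0.48), were lower in every subclone. *Gata4* was among the 4 under 0.05. In the other marker lists, 3 of 12 ESC rows were called higher and 1 lower, and of 4 germ layer markers 1 was called lower. The ESC genes called higher were *Esrrb* (log2 fold change 4.30, standard error 0.30), *Tfcp2l1* (2.89, standard error 0.28) and *Fgf4* (3.37, standard error 0.33). Called lower was *Utf1* (log2 fold change -1.51, standard error 0.27). Control and subclones thus differed in some ESC markers though not in *Pou5f1*. The part of other cells in the results below was not tested. In these bulk libraries, fewer cells of a type and less RNA per cell cannot be told apart.

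The promoters of 4 members are shown because these genes frame the results. *Dusp1* and *Dusp9* lay above the control in every subclone and *Dusp6* lay below it. For *Dusp5*, another inducible member, the control lay inside the range of the subclones. Each line gives the 250 bases before the annotated start in RefSeq (build GRCr8, read along the gene). They lie at chr10:17184603-17184852 for *Dusp1*, chr1:262543524-262543773 for *Dusp5*, chr7:35979354-35979603 for *Dusp6* and chrX:156502987-156503236 for *Dusp9*, all on the plus strand of that build. In the deposited annotation used for the counts, *Dusp1*, *Dusp5* and *Dusp6* are also on the plus strand, but *Dusp9* is on the minus strand. Capitals mark the cAMP response element TGACGTCA, its core TGACG on either strand (CGTCA when read on the other strand), and the CArG box bound by serum response factor.
Dusp1: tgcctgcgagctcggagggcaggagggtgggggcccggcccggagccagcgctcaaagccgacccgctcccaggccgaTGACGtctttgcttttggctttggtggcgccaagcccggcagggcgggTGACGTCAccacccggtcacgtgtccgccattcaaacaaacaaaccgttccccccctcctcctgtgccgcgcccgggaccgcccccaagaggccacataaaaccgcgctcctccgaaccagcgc
Dusp5: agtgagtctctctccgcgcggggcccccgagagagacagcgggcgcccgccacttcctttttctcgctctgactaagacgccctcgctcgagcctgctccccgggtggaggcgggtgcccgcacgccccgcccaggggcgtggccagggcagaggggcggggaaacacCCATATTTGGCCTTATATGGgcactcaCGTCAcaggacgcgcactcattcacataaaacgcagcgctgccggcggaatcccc
Dusp6: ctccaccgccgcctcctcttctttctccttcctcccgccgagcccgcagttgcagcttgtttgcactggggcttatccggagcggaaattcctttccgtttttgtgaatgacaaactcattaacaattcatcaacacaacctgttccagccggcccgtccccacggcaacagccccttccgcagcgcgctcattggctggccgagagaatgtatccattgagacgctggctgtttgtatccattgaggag
Dusp9: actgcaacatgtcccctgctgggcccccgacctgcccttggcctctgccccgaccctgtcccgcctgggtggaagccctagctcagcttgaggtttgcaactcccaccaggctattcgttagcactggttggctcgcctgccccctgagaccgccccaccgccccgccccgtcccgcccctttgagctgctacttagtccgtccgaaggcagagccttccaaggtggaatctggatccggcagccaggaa

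Of the 10 members, 9 had a RefSeq promoter, all but *Dusp4*. Both strands of these windows were searched, and overlapping matches of different motifs were each counted. TGACGTCA was found in 1 of the 9, *Dusp1*, starting 124 bases before the start site, and in 1.59% of all 33469 promoters. Its core TGACG, which the full element contains, was found in *Dusp1*, *Dusp2*, *Dusp5* and *Dusp16*, and in 18.2% of all promoters. The CArG box was found in *Dusp5* alone, as 2 adjoining matches that start 82 and 72 bases before the start site, against 1.5% of all promoters. The 6-base ETS sequence CCGGAA was found in 0 of the 9 windows and in 12.6% of all promoters. Other ETS sequences, such as the shorter GGAA, were not searched. The BMP-SMAD element GGCGCC was found in 6 of the 9 (8.69% of all promoters) but not in *Dusp6*, *Dusp9* or *Dusp10*. The promoters were rich in G and C, at 68.8% for *Dusp1*, 67.2% for *Dusp5*, 65.6% for *Dusp9* and 55.6% for *Dusp6*, beside a median of 51.2% over all promoters. These matches describe letters in a short window and were not related to binding.

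*Dusp10* was the most abundant MKP mRNA in all 4 libraries and *Dusp2* was nearly absent, while the order of the members between them varied. Levels of different genes are compared here in the deposited FPKM, which are per length. *Dusp10*, a JNK and p38 phosphatase, was at 25.4 FPKM in the control and at 34.6, 26.1 and 31.2 FPKM in #1, #2 and #3. It ranked 1 in every library and made up 48.2% of the summed FPKM of the 10 genes in the control and 44.6% to 50.8% in the subclones. *Dusp5*, a nuclear phosphatase specific for ERK, followed in the control at 15.2 FPKM, and the subclones averaged 12.5 ± 2.60 FPKM (SD, n = 3). *Dusp10* lay above *Dusp5* in all 4 libraries.

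Below these, neighbours in the order were often not separated. Over the subclones the mean levels were 8.19 ± 5.04 FPKM for *Dusp4*, 5.61 ± 0.793 for *Dusp7*, 4.19 ± 1.64 for *Dusp9* and 3.01 ± 1.29 for *Dusp1* (SD, n = 3 each). The subclones' ranges overlapped between *Dusp5* and *Dusp4*, *Dusp4* and *Dusp7*, *Dusp7* and *Dusp9*, and *Dusp9* and *Dusp1*. All subclones had more *Dusp1* than *Dusp8*, which was at 0.642 ± 0.347 FPKM. *Dusp6* was at 0.567 ± 0.382 FPKM and *Dusp16* at 0.290 ± 0.0838 FPKM, and the ranges of *Dusp8*, *Dusp6* and *Dusp16* overlapped. In the control the order ran *Dusp4* (3.94 FPKM), *Dusp7* (3.53), *Dusp6* (2.24), *Dusp9* (1.41), *Dusp1* (0.617) and *Dusp8* (0.373), with *Dusp2* and *Dusp16* listed at 0.

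**Figure D1:**
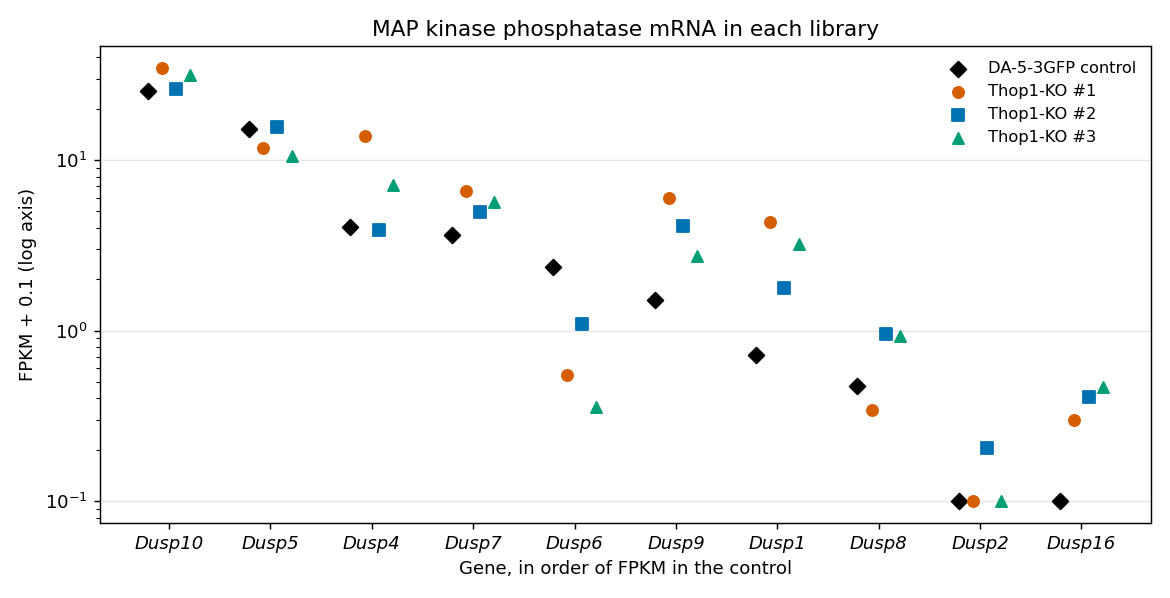
Deposited FPKM of the 10 MKP genes in each library, with 0.1 added so that values of 0 can be drawn on the log axis; each point is 1 library and no error bars apply. *Dusp10* is highest in every library, the control diamond lies above all subclones for *Dusp6*, and it lies below all of them for *Dusp1*, *Dusp7*, *Dusp9*, *Dusp10* and *Dusp16*.

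The place of *Dusp6* in this order differed between control and subclones. In the control, the level of *Dusp6* exceeded those of *Dusp9* and *Dusp1*, whereas in each subclone both lay above *Dusp6*. The ratio of *Dusp1* to *Dusp6* in FPKM was 0.275 in the control and 9.42, 1.68 and 12.2 in #1, #2 and #3. The ratio of *Dusp9* to *Dusp6* was 0.629 in the control and 13.1, 4.04 and 10.3 in the subclones. *Dusp6* made up 4.26% of the summed FPKM in the control and 0.416% to 1.71% in the subclones, while *Dusp1* made up 1.17% and 2.88% to 5.49%.

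Grouped by substrate and location, the composition of the MKP mRNA differed little between control and subclones. The summed FPKM of the 10 genes was 52.6 in the control and 65.7 ± 10.3 (SD, n = 3) in the subclones. The nuclear inducible group accounted for 37.5% in the control and 36.0% ± 2.38 in the subclones, the cytoplasmic ERK-preferring group for 13.6% and 15.7% ± 1.76, and the group preferring JNK and p38 for 48.9% and 48.3% ± 3.96 (SD, n = 3 each). The control lay inside the range of the subclones for the first and the last of these shares. For the cytoplasmic group the control share of 13.6% lay just below the lowest subclone, 13.7% in #3. Within that group, the lower *Dusp6* of the subclones stood beside higher *Dusp7* and *Dusp9*.

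**Figure D2:**
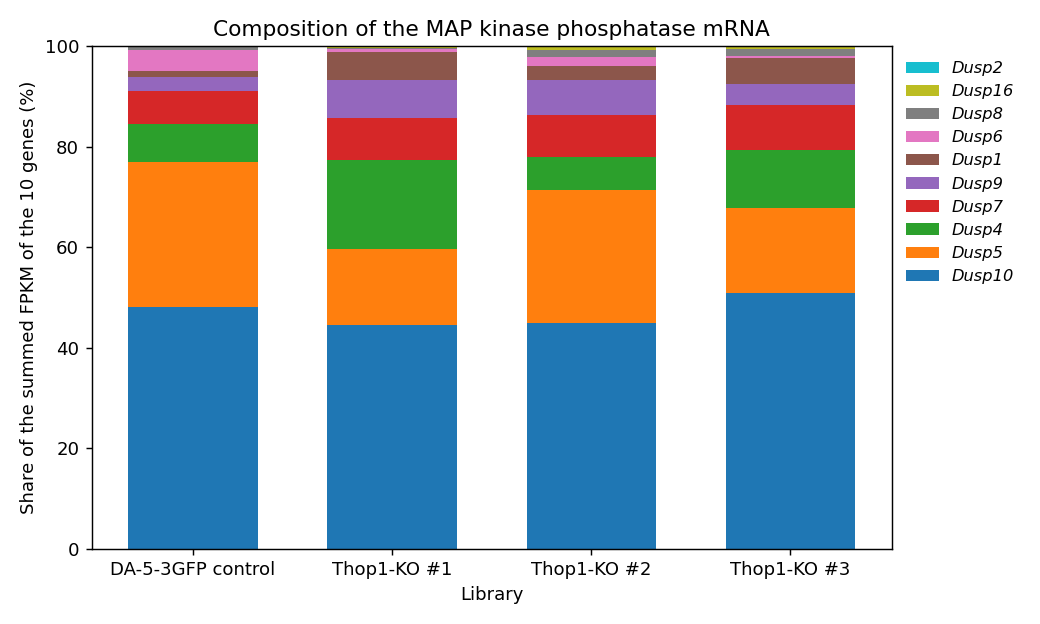
Share of each gene in the summed FPKM of the 10 MKP genes (%), stacked to 100% for each of the 4 libraries. *Dusp10* takes 44.6% to 50.8% of every bar, and *Dusp5* takes 28.8% in the control and 26.6% in #2 but 15.1% in #1 and 17.0% in #3.

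The libraries of *Thop1*-KO and control were then compared gene by gene, which asks whether loss of *Thop1* goes with a different supply of MAP kinase phosphatases. Of the 10 members, 9 had enough counts to be tested and *Dusp2* did not. The quasi-likelihood test of edgeR, adjusted by Benjamini-Hochberg over all genes with a threshold of 0.05, called 0 of the 9 and 13.8% of the 15028 genes tested. Before adjustment 4 of the 9 had a p-value below 0.05, namely *Dusp1*, *Dusp6*, *Dusp9* and *Dusp16*, against 34.0% of all genes. The control lay below all 3 subclones in 5 members, where this held for 38.1% of all genes, and above all 3 in 1 member, where this held for 37.6%. The median log2 fold change of the 9 was 0.79, with 7 estimates above 0 and 2 below, beside a median of 0.06 over all genes tested. With 1 control library the spread comes from the subclones alone, and the smallest exact permutation p-value that this design allows is 0.25. A difference between genotypes cannot be told apart from one between this control culture or library and the others.

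Among the nuclear inducible members, *Dusp1* differed most from the control. *Dusp1* (ENSRNOG00000003977) encodes an immediate early phosphatase of p38, JNK and ERK. It lies on chromosome 10 from 16970626 to 16973418 in the deposited annotation, whose build is not named in the sources used here. It had 18 counts in the control (95% Poisson interval 10.7 to 28.4) and 139, 58 and 111 in #1, #2 and #3, or 1.21 against 8.29, 3.28 and 6.18 CPM. Every subclone stood above the control beyond counting error: the ratio was 6.84 (4.17 to 11.9) in #1, 2.71 (1.57 to 4.88) in #2 and 5.10 (3.08 to 8.92) in #3. Subclone #1 also exceeded #2 by 2.53 times (1.85 to 3.49). The log2 fold change was 2.28 (standard error 0.69, 95% interval 0.63 to 3.93, adjusted p = 0.0729 by edgeR). Intervals of counts and of their ratios cover counting error only and compare libraries, not conditions.

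*Dusp4* (ENSRNOG00000011921, chromosome 16, 61078175 to 61091169), a nuclear phosphatase of ERK and JNK, separated the subclones from one another. It was at 15.9 CPM in the control, 54.9 in #1, 15.3 in #2 and 28.8 in #3. Subclone #2 thus lay at the control level, at 0.965 times the control (0.808 to 1.15), whereas #1 was at 3.45 times (2.99 to 4.0) and #3 at 1.82 times (1.55 to 2.13). The ratio of #1 to #2 was 3.58 (3.12 to 4.11), and the log2 fold change of 1.05 (95% interval -0.56 to 2.67, adjusted p = 0.306 by edgeR) was not larger than the spread between subclones.

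*Dusp5* (ENSRNOG00000014061, chromosome 1, 274245184 to 274258595) was at 37.1 CPM in the control and at 28.5, 37.8 and 25.9 CPM in #1, #2 and #3. Again #2 lay at the control level, at 1.02 times (0.909 to 1.14), while #1 and #3 lay below it at 0.767 times (0.677 to 0.869) and 0.698 times (0.616 to 0.791). The log2 fold change was -0.27 (95% interval -1.03 to 0.48, adjusted p = 0.569 by edgeR). *Dusp2* (ENSRNOG00000013862, chromosome 3), best known from lymphocytes, had 3 counts in #2 and 0 in each other library. Counts of 0 were read against a floor of 3 counts, or 0.202 CPM in the control, so a difference in *Dusp2* was not detectable at this depth. The 95% Poisson upper limit of its control count was slightly higher, at 3.69 counts or 0.248 CPM.

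The cytoplasmic, ERK-preferring members differed from the control in both directions. *Dusp6* (ENSRNOG00000023896, chromosome 7, 41475163 to 41479392), a phosphatase transcribed downstream of ERK itself, was at 6.26 CPM in the control and at 1.25, 2.77 and 0.723 CPM in #1, #2 and #3. These values rest on 93 counts in the control and 21, 49 and 13 in the subclones. All 3 subclones lay below the control beyond counting error, at 0.200 times (0.118 to 0.324), 0.443 times (0.307 to 0.633) and 0.116 times (0.0593 to 0.208). Subclone #2 again stood nearest to the control and exceeded #3 by 3.83 times (2.05 to 7.70). The log2 fold change was -1.98 (standard error 0.70, 95% interval -3.64 to -0.32, adjusted p = 0.101 by edgeR).

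*Dusp9* (ENSRNOG00000055185, chromosome X, 157168144 to 157172068), the X-linked member and a BMP target in mouse ESCs, was at 3.70 CPM in the control and at 15.4, 10.5 and 7.01 CPM in #1, #2 and #3. The ratios to the control were 4.16 (3.10 to 5.67), 2.84 (2.09 to 3.91) and 1.90 (1.37 to 2.65), so that here #3, not #2, was nearest. The log2 fold change was 1.57 (standard error 0.55, 95% interval 0.25 to 2.88, adjusted p = 0.101 by edgeR). The X chromosome as a whole did not share this direction: the median log2 fold change of its 517 tested genes was -0.24, with 38 called higher and 44 lower. Of the neighbours within 50 kb that were tested, *Slc6a8* had a log2 fold change of 0.07 (standard error 0.28), *Bcap31* one of -0.53 (standard error 0.21), and *Pnck* one of 1.41 (standard error 1.04), and 0 of the 3 were called.

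*Dusp7* (ENSRNOG00000010789, chromosome 8, 115069095 to 115076130) was at 11.2 CPM in the control and at 20.3, 15.4 and 17.8 CPM in the subclones. Every subclone stood above the control beyond counting error and the subclones were close to one another, with ratios between 1.38 (1.13 to 1.68) in #2 and 1.82 (1.5 to 2.20) in #1. Its log2 fold change was 0.67 (standard error 0.35, 95% interval -0.16 to 1.5, adjusted p = 0.219 by edgeR).

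Of the members that prefer JNK and p38, the abundant *Dusp10* differed little and the others were rare. *Dusp10* (ENSRNOG00000004003, chromosome 13, 104284660 to 104321455) was at 69.5 CPM in the control and at 94.1, 71.6 and 86.7 CPM in the subclones. At 1033 to 1578 counts per library its counting error is small, and the ratio to the control was 1.35 (1.25 to 1.46) in #1, 1.03 (0.947 to 1.12) in #2 and 1.25 (1.15 to 1.35) in #3. The log2 fold change was 0.27 (95% interval -0.37 to 0.92, adjusted p = 0.502 by edgeR).

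*Dusp16* (ENSRNOG00000006628, chromosome 4, 168472412 to 168517177) had 0 counts in the control and 8, 13 and 16 in #1, #2 and #3. Its mean in the subclones was 3.47 times a floor of 3 counts in the control library, and the adjusted p-value was 0.0775 by edgeR. That fold leaves out the counting error of the subclones, and the 95% Poisson upper limit of the control was 3.69 counts. Its tested neighbour within 50 kb, *Borcs5*, was at 6.93 CPM in the control and 18.0 CPM on average in the subclones (log2 fold change 1.38, standard error 0.61, adjusted p = 0.164 by edgeR). *Dusp8* (ENSRNOG00000029394, chromosome 1, 215030429 to 215033460) had 11 counts in the control and 8, 30 and 30 in the subclones. Subclone #1 was at 0.644 times the control (0.225 to 1.76), within counting error, and #2 and #3 lay above the control. Its log2 fold change of 0.79 had a 95% interval of -1.5 to 3.07 (adjusted p = 0.587 by edgeR).

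**Figure D3:**
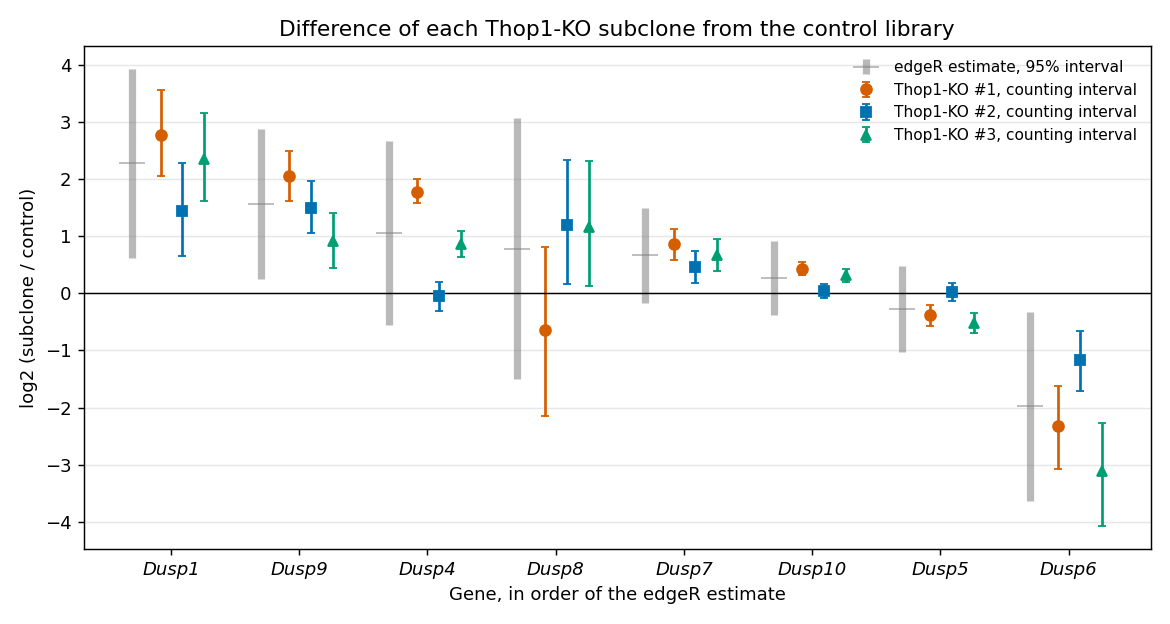
log2 ratio of each *Thop1*-KO subclone to the 1 control library for 8 MKP genes (coloured points, with 95% counting intervals) and the edgeR log2 fold change with its 95% interval (grey bars); *Dusp16* and *Dusp2* are left out because the control has 0 counts. All 3 subclones lie above 0 for *Dusp1*, *Dusp9* and *Dusp7* and below 0 for *Dusp6*, and #2 lies near 0 for *Dusp4*, *Dusp10* and *Dusp5*.

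The highest and lowest subclones differed by more than counting error in 8 of the 9 members tested, the exception being *Dusp16*. This pair was chosen by its values, which favours a difference, and the share over all genes was not computed. The ratio of the highest to the lowest subclone ran from 1.31 for *Dusp10* (1.22 to 1.42) to 3.83 for *Dusp6*. Subclone #1 was highest in *Dusp1*, *Dusp4*, *Dusp7*, *Dusp9* and *Dusp10*. Subclone #2 was lowest in *Dusp1*, *Dusp4*, *Dusp7* and *Dusp10* and highest in *Dusp5* and *Dusp6*, and it was nearest to the control for these 6 genes. It was not nearest for *Dusp9*, nor for *Dusp8*, where #2 was the highest and the farthest from the control. The *Dusp8* ratios to the control were 2.29 (1.12 to 5.07) in #2, 2.26 (1.10 to 4.99) in #3 and 0.644 (0.225 to 1.76) in #1. These are descriptions of single libraries. How often #2 is nearest to the control over all genes was not computed, so they are not a trait of these members.

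With #2 left out, 4 members were called by edgeR, namely *Dusp1* (adjusted p = 0.00195), *Dusp6* (adjusted p = 0.00261), *Dusp4* (adjusted p = 0.0110) and *Dusp9* (adjusted p = 0.0231), all by the same edgeR test. The calls over all genes grew with them, to 37.9% of the genes then tested, and 4 of 9 members is close to that share. With #1 or with #3 left out, 0 members were called. DESeq2's Wald test, the tool of the study, called *Dusp1* (adjusted p = 0.0152) and *Dusp9* (adjusted p = 0.0362), 2 of 9 members against 21.5% of all genes that received an adjusted p-value from DESeq2.

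**Figure D4:**
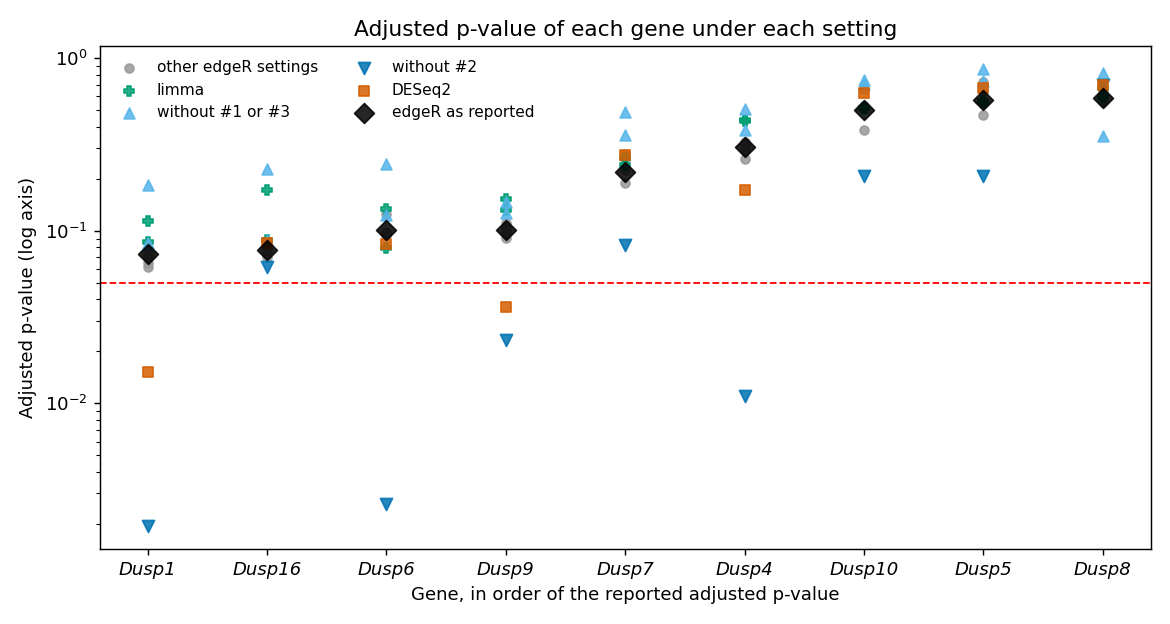
Adjusted p-value (log axis) of each of the 9 MKP genes tested under edgeR as reported and under 11 alternatives, with the 0.05 threshold as a dashed line; each point is 1 setting, and *Dusp8* and *Dusp16* lack the setting that asks for at least 10 counts in every library. Only DESeq2 and the fit without #2 place a gene below the line, for *Dusp1* and *Dusp9* under both and for *Dusp4* and *Dusp6* without #2 alone.

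The MAP kinases that these phosphatases act on, and the kinases that activate them, were also examined. *Mapk3*, which encodes ERK1, was at 266 CPM in the control and 267 CPM on average in the subclones (log2 fold change 0.01, standard error 0.28), and *Mapk14*, which encodes p38 alpha, had a log2 fold change of 0.20 (standard error 0.23). Of the 7 MAP kinase kinases, all tested, 1 was called higher and 0 lower, with a median of -0.01. That gene was *Map2k7*, an activator of JNK, at 2.62 CPM in the control and 48.5, 36.6 and 44.4 CPM in the subclones (log2 fold change 4.04, standard error 0.40).

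Of 8 other phosphatases that act on MAP kinases 5 were tested, 2 were called higher and 0 lower, and the median was 0.13. The 2 calls became 1 without #1 and 0 without #3. *Ppp2ca*, a catalytic subunit of protein phosphatase 2A, was at 9.35 CPM in the control and at 28.7, 44.6 and 30.9 CPM in the subclones (log2 fold change 1.89, standard error 0.40, adjusted p = 0.0295 by edgeR). The other catalytic subunit in the list, *Ppp2cb*, was more abundant and lay lower in every subclone. It was at 272.5 CPM in the control and at 245, 193 and 177 CPM in the subclones (log2 fold change -0.41, standard error 0.26, adjusted p = 0.299 by edgeR). *Ppm1a*, a metal-dependent phosphatase, was at 14.8 CPM against 35.2, 33.5 and 37.9 CPM (log2 fold change 1.26, standard error 0.30, adjusted p = 0.0395 by edgeR). The atypical dual-specificity phosphatases, which lack the MAP kinase-binding domain, had 12 of 19 rows tested and 0 called by edgeR and 2 by DESeq2, with 2 at an unadjusted p-value under 0.05 and a median of 0.10. Those 2 were *Dusp14* (log2 fold change 1.68) and *Dusp23* (1.37, standard error 0.38), and *Dusp23* was at 4.69 FPKM in the control and 11.4, 12.8 and 12.3 FPKM in the subclones. The most abundant by the mean FPKM of all 4 libraries were *Dusp22* (log2 fold change 0.03), *Dusp26* (-0.46) and *Dusp28* (-0.63), although *Dusp23* exceeded *Dusp28* in every subclone.

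**Figure D5:**
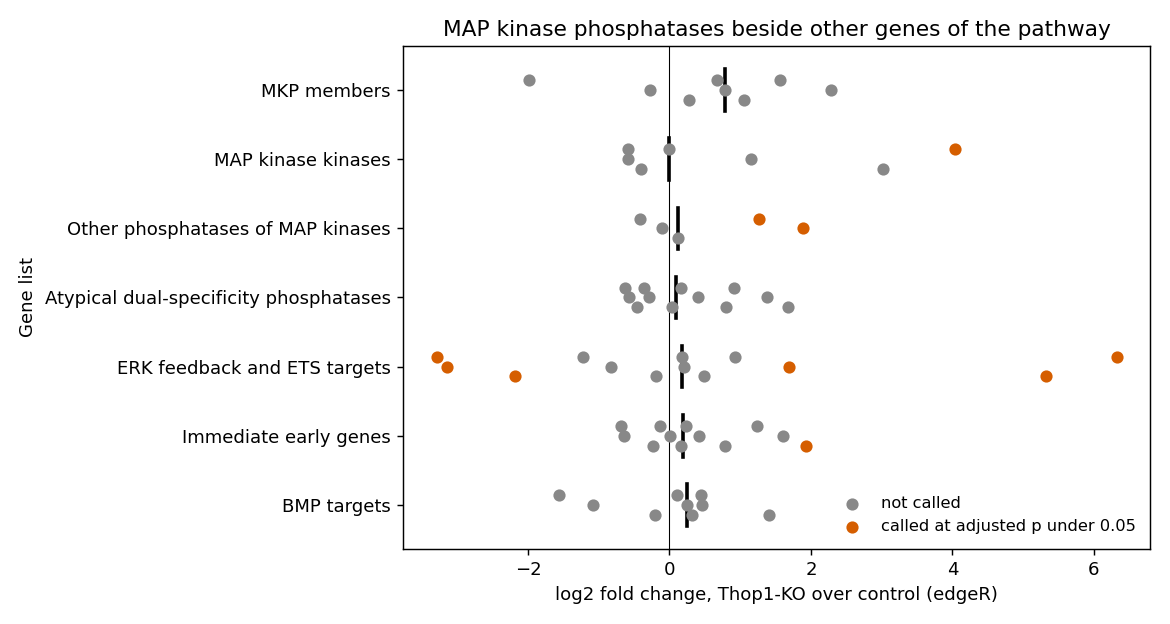
edgeR log2 fold change of each tested gene (*Thop1*-KO over control) in the MKP group and 6 other lists; each point is 1 gene, orange points passed the adjusted threshold of 0.05, and black bars mark the list medians. *Dusp16* is not drawn because its control count is 0, though it counts in the median of 0.79; the MKP group holds no called gene, and the ERK feedback list holds 3 called genes on each side of 0.

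*Dusp6* is usually read together with other genes transcribed downstream of ERK. Of 14 ERK feedback and ETS genes 13 were tested, 3 were called lower and 3 higher, and the median was 0.18. These 6 calls became 1 without #3 and 3 with limma when 0.1 was added to the FPKM, and the median was -0.07 without #1. The 3 called lower were *Etv4* (log2 fold change -3.15, standard error 0.68), *Etv1* (-3.28, standard error 0.60) and *Spry4* (-2.18, standard error 0.45). The ETS factor *Etv4* was at 125 CPM in the control and 5.25, 26.4 and 10.6 CPM in #1, #2 and #3, so that #2 was nearest to the control here too. *Spry4*, an inhibitor of receptor tyrosine kinase signalling, was at 46.1 CPM against 14.3, 5.94 and 10.2 CPM, with #2 the lowest. The 3 called higher were *Il17rd* (15 counts in the control and 2142, 538 and 1534 in the subclones), *Spred2* (log2 fold change 1.69, standard error 0.37) and *Spry1* (1 count in the control and 66, 41 and 49 in the subclones). The list thus held calls in both directions.

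*Dusp1* belongs to the immediate early genes, of which 12 of 17 were tested, 1 was called higher and 0 lower, with a median of 0.20. The gene called was *Klf6* (log2 fold change 1.93, standard error 0.43), and without #3 the list held 0 calls by edgeR. *Fos* had at most 7 counts and *Egr1* at most 9 in any library, too few to be tested. Of the 9 BMP targets, all tested, 0 were called by edgeR and 2 by DESeq2, 2 had an unadjusted p-value under 0.05 and the median was 0.24. *Id3*, the most abundant of them by the mean FPKM of all 4 libraries, was at 330 CPM in the control and 63.3, 169 and 102 CPM in the subclones (log2 fold change -1.57, standard error 0.46, adjusted p = 0.0660 by edgeR), the opposite side of the control from *Dusp9*. *Id1* had a log2 fold change of 0.46 (standard error 0.41) and *Smad7* one of 0.32 (standard error 0.25).

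Among the 104 other genes of these lists, the one most like each member was found from the Euclidean distance of centred log2 CPM over the 4 libraries, where 0 means identical patterns. *Dusp10* was closest to *Bambi* (distance 0.146), *Dusp7* to *Btg2* (0.156) and *Dusp5* to *Jun* (0.221). *Dusp1* was closest to *Ier5* (0.526), which was at 10.6 CPM in the control and 47.9, 22.5 and 26.5 CPM in the subclones, and so was *Dusp4* (0.791). The gene nearest to *Dusp6* was *Acta2*, at a distance of 0.740. With 4 libraries these distances are only descriptions.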

How the data were processed

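RNA-seq libraries of 1 wild-type control and 3 *Thop1*-KO subclones were grouped by genotype and clone number in the deposited labels. Per the labels, libraries were made with a poly(A) kit, and the submitters' processing notes name HISAT2 2.0.5 and featureCounts 1.5.0-p3. Per the study's methods, the reads were first cleaned with the FASTX toolkit. The genome build, annotation version and strand setting are not given in the sources used here. The authors deposited raw counts per gene and FPKM values, which are counts scaled by gene length and a library factor. No member overlaps another gene of the deposited annotation.

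Counts were analysed with edgeR 4.0.16 (R 4.3.3) across all genes: filterByExpr with a minimum count of 10, TMM normalization, the quasi-likelihood test, and Benjamini-Hochberg adjustment, with calls at an adjusted p-value under 0.05. Standard errors were the log2 fold change divided by the root of the F statistic. Counting intervals were exact Poisson intervals, and for ratios exact Clopper-Pearson intervals, at 95%; sequenced copies are not independent molecules, so they cover counting error only. The floor was 3 counts. The fit was also run on simulated counts that held no culture or library effect, and nothing reported here rests on that run. Alternatives used DESeq2 1.42.0, limma 3.58.1 on log2 values with 1 or 0.1 added to the FPKM, other scalings and filters, and each subclone left out. Most-alike genes used a pseudocount of 0.5 CPM.

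The members, gene lists and tests were chosen with earlier results of these data known. All members were named. Of the other lists, genes called were named, otherwise the 3 most abundant, together with tested genes within 50 kb of a member with an unadjusted p-value under 0.05, the most alike gene, and the markers and pathway genes a sentence turns on, which were chosen after their values were seen. Of the list symbols, 4 were not analysed here, and the result of the MAP kinase list as a whole is not reported here. Promoter sequences are from RefSeq (GRCr8) and were matched by symbol for 9 of 10 members. No paired numbering exists. Figures were drawn with matplotlib 3.10.9.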

Additional observations from a re-analysis of the deposited data

How the results depend on the processing

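With 1 control library, no alternative could leave the control out. Over 11 alternatives the direction of each of the 9 members tested was the same as reported. The number of members called was 2 with DESeq2, for *Dusp1* (log2 fold change 2.29) and *Dusp9* (1.57), against 0 as reported by edgeR, and 0 under the other scalings, filters and limma. With each subclone left out in turn it ran from 0 to 4, the 4 being reached without #2. The log2 fold change then ran from 1.97 to 2.57 for *Dusp1*, 0.48 to 1.40 for *Dusp4*, -2.66 to -1.63 for *Dusp6* and 1.25 to 1.81 for *Dusp9*. The number of all genes called ran from 457 without #3 to 5572 without #2, against 2072 with all subclones; the cause was not tested. On log2(FPKM + 1), limma gave smaller values for rare genes, such as 1.26 for *Dusp1* and -1.08 for *Dusp6* (adjusted p = 0.114 and 0.0794 by limma), because the pseudocount of 1 is near their level. *Dusp8* and *Dusp16* had under 10 counts in a library and gave no value under that filter. Counts called in the other lists stayed within 1.5 times of the reported count in 92 of 121 list and setting pairs, and moved in 29. At 8 to 30 counts per subclone, *Dusp8* and *Dusp16* are limited by depth. No paired analysis was possible because the control has 1 library and its label carries no replicate number.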
